A study of Mus musculus with 4 samples.

Results

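Genes of the ectodysplasin pathway and of NF-kB (Eda, Edar, Edaradd, Tnfrsf19, Nfkb1, Nfkbia, Relb and Traf6) were followed in single-cell RNA-seq of mouse mammary tissue. They are 8 of the 30406 genes listed at every stage, chosen by name for their part in the growth of ectodermal placodes. Earlier results of these data were known when the members and the gene lists below were chosen. Cells came from mammary rudiments of wild-type C57B6 female mice before birth (E13.5, E14.5, E15.5) and from mammary glands at birth (P0). Tissue of several embryos from different dams was pooled into 1 library for each stage, so no value has a replicate, and stage cannot be told apart from library. EpCAM+ epithelial and EpCAM- stromal cells were sorted after dead cells and cells with CD45, CD31 or Ter119 had been gated out. The P0 glands were digested at other enzyme concentrations than the embryonic rudiments and went through a lysis of red blood cells, so the digestion cannot be told apart from birth either.

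Ectodysplasin, the product of Eda, is a ligand of the TNF family that binds the receptor Edar. Edar signals through its own adaptor, Edaradd, which acts with Traf6 and leads to activation of the IkB kinases. These kinases mark the inhibitor IkB-alpha (Nfkbia) for degradation and so release NF-kB dimers such as those of p50 (Nfkb1), while Nfkbia is itself transcribed in response to NF-kB. The pathway is known for its place in the formation of hair, teeth and glands from the ectoderm. Tnfrsf19, also called Troy, is a related receptor of the same family, and RelB is the subunit best known from the non-canonical NF-kB pathway.

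Cells with at least 5000 UMIs (unique molecular identifiers, 1 for each transcript molecule counted) and at most 6% mitochondrial UMIs were kept. A cell was called epithelium or mesenchyme by the larger of the summed UMIs of Epcam, Krt8, Krt18, Krt5 and Krt14 and of Col1a1, Col1a2 and Col3a1. From E13.5 to P0, epithelium held 98, 45, 532 and 230 cells and mesenchyme 135, 31, 283 and 273. The paper took contaminating skin cells out before its analysis of mammary epithelium. No skin cells were removed here, so the epithelial classes can hold skin as well as mammary cells. The share of skin cells was not measured here. By the paper's counts under the same limits, mammary epithelial cells would be the smaller part of the E13.5 epithelial class. They would be most of the later epithelial classes. Epithelial values of E13.5 and of later stages thus set unlike mixes of cells side by side. The 8 classes held from 838030 UMIs (E14.5 mesenchyme) to 14293755 (E15.5 epithelium), and their median cell from 8743 UMIs (P0 mesenchyme) to 26725 (E14.5 epithelium). In every class the median cell had at least 60 UMIs of its own tissue's markers and at most 3 of the other's. No kept barcode was shared between libraries. P0 mesenchyme stood apart in red blood cell genes: 16502 UMIs, or 6580 CPM, came from Hba-a1, Hbb-bs and Alas2, with Hba-a1 in 23 of 273 cells, against at most 10.7 CPM in any other class.

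Levels are summed UMIs of a gene per 1000000 UMIs of the class (CPM). Parentheses after a value hold its exact 95% interval (Poisson for a level, binomial for a share, conditional binomial for a ratio), which covers counting error only. A member was counted as higher or lower in a class when its ratio was at least 2-fold and both classes together held at least 10 UMIs. No test was made, as cells of 1 library are not replicates. Levels are not compared between genes, because reads come from the 3' end of transcripts. Fewer cells of a kind within a class and less RNA in each cell cannot be told apart in these sums.

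The sequences just before the transcription starts of Eda, Edar, Edaradd and Nfkbia are shown because these genes did not all follow the same course from E13.5 to birth. They are the 250 bases before the start in RefSeq on GRCm38.p6, written 5' to 3' on the strand of the gene, and windows were found for 6 of the 8 members. Capitals mark a match to the kappaB consensus or to the TCF core CTTTGA, both searched on both strands. The kappaB consensus was found in 7.25% of all 32851 windows of this length and the TCF core in 13.8%.
Eda, chrX:99975356-99975605, plus strand: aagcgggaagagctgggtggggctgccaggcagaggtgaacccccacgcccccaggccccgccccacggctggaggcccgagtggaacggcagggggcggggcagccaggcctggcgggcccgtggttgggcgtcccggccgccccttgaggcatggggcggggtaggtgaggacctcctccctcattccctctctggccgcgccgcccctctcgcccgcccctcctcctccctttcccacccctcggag
Edar, chr10:58675697-58675946, minus strand: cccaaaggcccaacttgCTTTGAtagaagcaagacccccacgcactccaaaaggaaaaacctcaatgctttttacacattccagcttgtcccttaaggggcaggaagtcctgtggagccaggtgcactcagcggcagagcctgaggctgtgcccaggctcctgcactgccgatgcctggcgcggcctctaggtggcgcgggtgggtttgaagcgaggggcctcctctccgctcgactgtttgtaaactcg
Edaradd, chr13:12520451-12520700, minus strand: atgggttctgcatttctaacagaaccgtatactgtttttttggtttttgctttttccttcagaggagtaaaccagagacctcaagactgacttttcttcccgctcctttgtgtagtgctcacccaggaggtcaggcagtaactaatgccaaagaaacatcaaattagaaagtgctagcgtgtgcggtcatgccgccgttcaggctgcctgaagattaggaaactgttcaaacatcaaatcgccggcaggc
Nfkbia, chr12:55492648-55492897, minus strand: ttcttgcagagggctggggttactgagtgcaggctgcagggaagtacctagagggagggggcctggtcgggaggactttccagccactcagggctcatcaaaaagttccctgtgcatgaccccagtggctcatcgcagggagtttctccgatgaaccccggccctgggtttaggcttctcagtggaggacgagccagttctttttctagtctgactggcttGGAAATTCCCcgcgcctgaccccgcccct
The kappaB match of Nfkbia starts 29 bases before its transcription start, and the TCF core of Edar 233 bases before. A further TCF core lies 201 bases before the inner of the starts listed for Tnfrsf19. The bases just after the starts of Edar and Tnfrsf19 were not found near the beginning of a GENCODE M21 transcript of the gene. Those of Eda, Edaradd, Nfkbia and Traf6 were. Neither motif was found in the windows of Eda, Edaradd, Traf6 or the outer start of Tnfrsf19.

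Before birth the adaptor Edaradd was higher in epithelium than in mesenchyme, at birth it was near 0 in both, and Nfkb1 and Nfkbia were then highest in mesenchyme. Edaradd was at 12.7, 30.6 and 12.9 CPM in epithelium from E13.5 to E15.5, at least 2-fold above mesenchyme each time, and at 0.382 CPM at P0. The E13.5 ratio, 2.04 (1.04 to 4.15), rests on 26 and 15 UMIs. Eda and Nfkb1, higher in epithelium at E15.5, were higher in mesenchyme at P0. In P0 mesenchyme Nfkb1 reached 503 CPM and Nfkbia 796 CPM, the highest levels of both over the 8 classes.

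**Figure D1:**
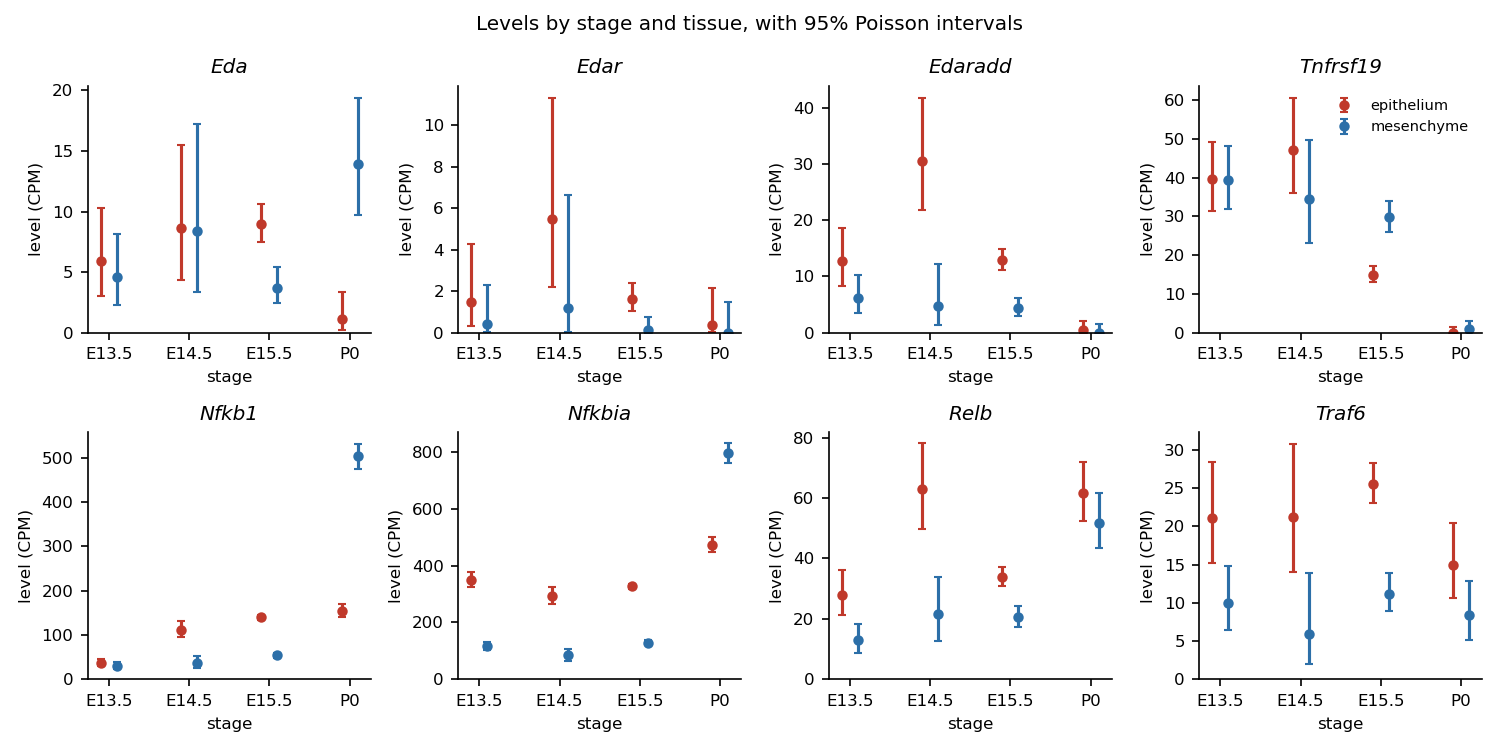
Levels of the 8 members (CPM, linear axes from 0) by stage in epithelium (red) and mesenchyme (blue). Each point is 1 class of 1 library and each bar its exact 95% Poisson interval. Edar, Edaradd and Tnfrsf19 lie near 0 at P0, while Nfkb1 and Nfkbia are highest in P0 mesenchyme, at 503 and 796 CPM.

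Between tissues at E13.5, 7 of the 8 members had at least 10 UMIs. Of these, 4 were counted as higher in epithelium (Edaradd, Nfkbia, Relb and Traf6) and 0 in mesenchyme, where 11.5% and 24.2% of all genes tested were so called. At E14.5, 5 of 7 were higher in epithelium, with Nfkb1 added, and 0 in mesenchyme, against 16.2% and 19.6% of all genes. At E15.5, 6 of 8 were higher in epithelium (Eda, Edar, Edaradd, Nfkb1, Nfkbia and Traf6) and 0 in mesenchyme, against 17.4% and 23.8% of all genes. At P0, 5 members had enough UMIs, of which 0 were higher in epithelium and 2, Eda and Nfkb1, in mesenchyme, against 25.2% and 20.8% of all genes. The median log2 ratio of epithelium over mesenchyme among the members tested was 1.03, 1.59, 1.31 and -0.75 from E13.5 to P0, beside medians over all genes tested of -0.20, 0.01, -0.12 and 0.26. After thinning to 5000 UMIs per cell, when fewer members reach 10 UMIs, 3, 4 and 4 were higher in epithelium at the embryonic stages. At E13.5 Edaradd then fell short of 10 UMIs, with 3 left in each tissue. At E15.5 Edar fell short of 10 UMIs. Eda did not, with 21 UMIs in epithelium and 6 in mesenchyme, but its ratio fell below 2-fold. At P0, scaling by the median of ratios instead of by all UMIs lowers every log2 ratio by 0.32. Nfkbia, at -0.75, then passes 2-fold as well, at -1.07, so that 3 members are counted as higher in mesenchyme, and Relb goes from 0.25 to -0.07. The shares of all genes above hold for all UMIs without thinning. Those under thinning or under this scaling are not given here, so these counts of members have no background beside them.

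**Figure D2:**
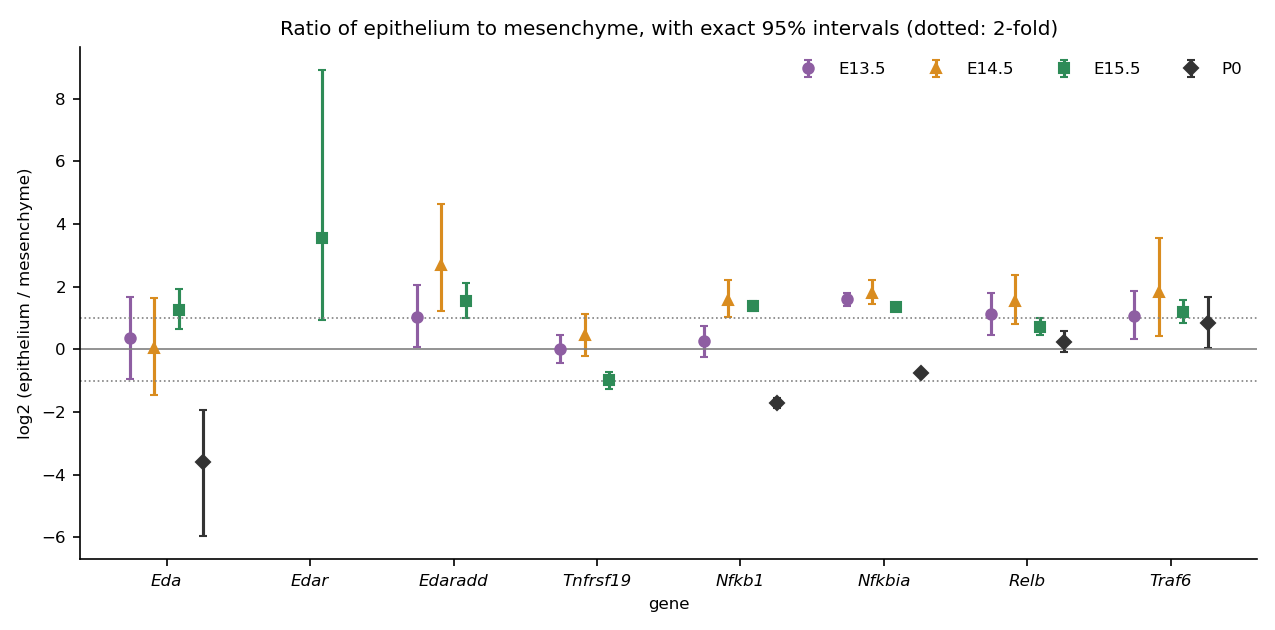
Log2 ratio of epithelium over mesenchyme for each member at each stage, with exact 95% intervals, for members with at least 10 UMIs over both tissues and at least 1 in each. Dotted lines mark 2-fold. At P0 Eda lies at -3.60, Nfkb1 at -1.71 and Nfkbia at -0.75, while at E15.5 they lie at 1.27, 1.39 and 1.35.

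Eda (ENSMUSG00000059327, chromosome X, 99975606 to 100400762 on GRCm38, as for the genes that follow) encodes the ligand. From E13.5 to P0 epithelium had 12, 11, 128 and 3 UMIs and mesenchyme 11, 7, 27 and 35. As levels, epithelium was at 5.88 CPM (3.04 to 10.3), 8.64 (4.31 to 15.46), 8.95 (7.47 to 10.6) and 1.15 (0.237 to 3.35). Mesenchyme was at 4.57 CPM (2.28 to 8.17), 8.35 (3.36 to 17.2), 3.72 (2.45 to 5.41) and 13.96 (9.72 to 19.4). No difference between the tissues was detectable at this depth at E13.5 or E14.5, with ratios of 1.29 (0.520 to 3.22) and 1.03 (0.366 to 3.15). At E15.5 Eda was higher in epithelium by 2.41-fold (1.58 to 3.79), and at P0 in mesenchyme by 12.2-fold (3.83 to 61.8). From E15.5 to P0 the epithelial level was lower by 7.80-fold (2.61 to 38.3), on 3 UMIs at P0, and that of mesenchyme higher by 3.75-fold (2.21 to 6.45). In the order of the 8 classes, P0 mesenchyme came first and was apart from E15.5 epithelium, the next, and no other neighbours in that order were apart.

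Cells of each tissue were also placed in ranges by the largest of their scaled marker sums, which are ranges of a score and not cell types. In P0 mesenchyme these were Pi16 Dpp4 (Pi16, Dpp4, Cd55, Sema3c), adipogenic (Fabp4, Pparg, Col15a1, Cd36) and matrix (Mfap4, Mgp, Enpp2), with 101, 80 and 88 cells, of which 12, 13 and 12 lay within 1.5 times of the cut. Eda was at 25.0 CPM (15.1 to 39.1) in the matrix range, higher than in the others together by 2.70-fold (1.32 to 5.62). It was at 10.3 CPM in the adipogenic range and 8.59 in the Pi16 Dpp4 range. In E15.5 mesenchyme, a sub-epithelial range (Esr1, Lef1, Crabp1, Vcan) of 189 cells and a dermal range (Plagl1, Cdkn1c, Fgf10, Fzd4) of 94 had 12 and 8 cells near the cut. Eda was there at 2.31 and 7.26 CPM, a ratio of 0.318 (0.136 to 0.728) that rests on 12 and 15 UMIs. In E15.5 epithelium, a Tbx3 Pthlh range (Tbx3, Ndnf, Sostdc1, Msx1, Pthlh, Lmo1) held 367 cells and a Krtdap Anxa1 range (Krtdap, Ly6d, Anxa1, Krt1, Krt10, Sbsn, Krt4, Gabrp) 163, with 26 and 17 near the cut, and Eda was at 10.4 against 5.99 CPM, a ratio of 1.74 (1.14 to 2.75). Ly6d and Anxa1 are also known from luminal and Pthlh and Lmo1 from basal mammary cells, so these ranges are not places in the tissue.

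Edar (ENSMUSG00000003227, chromosome 10, 58600789 to 58675654), the ectodysplasin receptor, had few UMIs in every class. Epithelium had 3, 7, 23 and 1 UMIs from E13.5 to P0 and mesenchyme 1, 1, 1 and 0. Its level in epithelium was 1.47 CPM (0.303 to 4.29), 5.50 (2.21 to 11.3), 1.61 (1.02 to 2.41) and 0.382 (0.00968 to 2.13). At E15.5, 19 of 532 epithelial cells had a UMI (3.57%, 2.16 to 5.52) and 1 of 283 mesenchymal cells (0.353%, 0.00895 to 1.95), at median depths of 24695.5 and 24376 UMIs, and the ratio of levels was 11.7 (1.90 to 481). After each cell was thinned to 5000 UMIs, 3 epithelial and 0 mesenchymal cells kept one. The 21 UMIs in the Tbx3 Pthlh range and 2 in the Krtdap Anxa1 range at E15.5 gave a ratio of 5.12 (1.252 to 45.1). The level in epithelium was 4.21-fold lower at P0 than at E15.5, with an interval that reaches below 1 (0.683 to 173). With cells that held markers of other lineages left out, P0 epithelium had no Edar UMI and this difference was no longer counted. The ratio of E15.5 over E14.5 in epithelium was 0.293 (0.122 to 0.808), where the E14.5 level rests on 7 UMIs in 45 cells.

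Edaradd (ENSMUSG00000095105, chromosome 13, 12472632 to 12520438) encodes the adaptor that binds the death domain of Edar. Its UMIs from E13.5 to P0 numbered 26, 39, 184 and 1 in epithelium and 15, 4, 32 and 0 in mesenchyme. Its level in epithelium was 12.7 CPM (8.32 to 18.7), 30.6 (21.8 to 41.9), 12.9 (11.1 to 14.9) and 0.382 (0.00968 to 2.13). In mesenchyme it was 6.23 CPM (3.49 to 10.3), 4.77 (1.30 to 12.2), 4.41 (3.01 to 6.22) and 0. Epithelium was higher by 2.04-fold (1.04 to 4.15) at E13.5, 6.42-fold (2.32 to 24.7) at E14.5 and 2.92-fold (2.00 to 4.40) at E15.5. E14.5 epithelium was the highest class and apart from the next, while E15.5 and E13.5 epithelium were not apart from each other.

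At P0 Edaradd was lower than at E15.5 in epithelium by 33.7-fold (5.97 to 1336). With 0 UMIs set to 3 counts, P0 mesenchyme was 3.68-fold lower than at E15.5, with an exact lower limit of 2.83. A UMI was found in 128 of 532 epithelial cells at E15.5 (24.1%, 20.5 to 27.9) whereas the P0 library had it in 1 of 230 (0.435%, 0.0110 to 2.40). P0 cells were shallower, and after thinning the shares were 28 of 532 cells (5.26%, 3.53 to 7.52) and 0 of 230, where 3 counts of the total set a limit of 1.30% on cells with a UMI at this depth. Within epithelium, Edaradd was higher in the Tbx3 Pthlh than in the Krtdap Anxa1 range by 7.27-fold (1.80 to 63.5) at E13.5, at 18.9 and 2.60 CPM, and by 2.01-fold (1.39 to 2.97) at E15.5, at 15.4 and 7.70 CPM. The E13.5 value rests on 24 and 2 UMIs. At E14.5, with 31 and 14 cells, the ratio was 0.974 (0.483 to 2.06). After thinning, the log2 ratio at E15.5 went from 1.00 to 0.15. Of the 57 Tbx3 Pthlh and 41 Krtdap Anxa1 cells at E13.5, 9 and 1 lay near the cut.

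Cells in which Edar and Edaradd were both seen were few. In E15.5 epithelium, 6 of 532 cells held a UMI of each, and Edaradd was found in 31.6% of the 19 cells with Edar and 23.8% of the others. In E14.5 epithelium 4 of 45 cells held both. Eda and Edar were seen together in 3 of 532 epithelial cells at E15.5 and in 0 cells of the other classes.

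Tnfrsf19 (ENSMUSG00000060548, chromosome 14, 60963875 to 61046490) encodes the receptor Troy and was found in both tissues before birth. Epithelium had 81, 60, 214 and 0 UMIs from E13.5 to P0 and mesenchyme 95, 29, 216 and 2. Its level in epithelium was 39.7 CPM (31.5 to 49.3), 47.1 (36.0 to 60.7), 15.0 (13.03 to 17.1) and 0. In mesenchyme it was 39.4 CPM (31.9 to 48.2), 34.6 (23.2 to 49.7), 29.8 (25.9 to 34.0) and 0.798 (0.0966 to 2.88). At E13.5 the ratio of epithelium over mesenchyme was 1.01 (0.738 to 1.37). At E15.5 mesenchyme was 1.99 times as high (1.64 to 2.41), just short of 2-fold, and it passed 2-fold where the marker sums had to differ 5 times or other tissue markers were used. The epithelial level was lower at E15.5 than at E13.5 by 2.65-fold (2.03 to 3.44), while the ratio in mesenchyme was 0.754 (0.590 to 0.971). At P0 epithelium, with 0 UMIs set to 3 counts, was 13.05-fold lower than at E15.5 (exact lower limit 10.52), and mesenchyme was lower by 37.3-fold (10.2 to 310). The 5 highest classes, all from before birth, were not apart from their neighbours among these.

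Within mesenchyme, Tnfrsf19 was higher in the sub-epithelial range at the first stages. It was at 72.7 CPM there and 14.52 CPM in the dermal range at E13.5, 5.01-fold (3.03 to 8.66), with 61 and 74 cells, 6 and 8 of them near the cut. At E14.5 it was at 69.3 and 6.48 CPM, 10.7-fold (3.28 to 55.2), with 14 and 17 cells. At E15.5 it was at 33.9 and 19.4 CPM, a ratio of 1.75 (1.23 to 2.53), and after thinning the log2 ratio went from 0.81 to 1.67. Within epithelium, the ratio of the Tbx3 Pthlh over the Krtdap Anxa1 range was 0.881 (0.554 to 1.42) at E13.5 and 1.56 (1.13 to 2.18) at E15.5. Edaradd was also higher in the sub-epithelial range at E13.5, by 5.34-fold (1.44 to 29.5), on 12 and 3 UMIs.

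**Figure D3:**
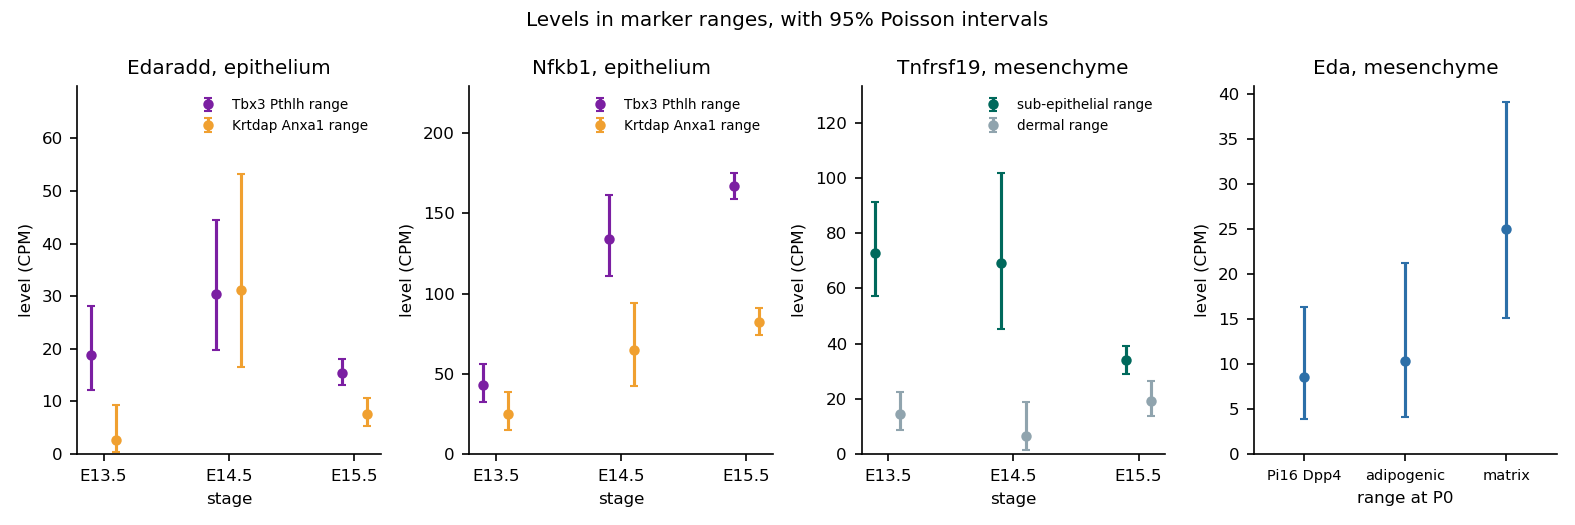
Levels (CPM, linear axes from 0) of Edaradd and Nfkb1 in the Tbx3 Pthlh and Krtdap Anxa1 ranges of epithelium, of Tnfrsf19 in the sub-epithelial and dermal ranges of mesenchyme, and of Eda in the ranges of P0 mesenchyme. Bars are exact 95% Poisson intervals. Tnfrsf19 is at 72.7 and 69.3 CPM in the sub-epithelial range at E13.5 and E14.5, against 14.52 and 6.48 CPM in the dermal range.

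Traf6 (ENSMUSG00000027164, chromosome 2, 101678429 to 101701669), a ubiquitin ligase used by many receptors, stayed within 2-fold between E13.5, E15.5 and P0 in both tissues. Its UMIs from E13.5 to P0 numbered 43, 27, 366 and 39 in epithelium and 24, 5, 81 and 21 in mesenchyme. Its level in epithelium was 21.1 CPM (15.2 to 28.4), 21.2 (13.97 to 30.9), 25.6 (23.0 to 28.4) and 14.9 (10.6 to 20.4). In mesenchyme it was 9.96 CPM (6.38 to 14.8), 5.97 (1.94 to 13.9), 11.2 (8.86 to 13.9) and 8.37 (5.18 to 12.8). Epithelium was higher by 2.11-fold (1.254 to 3.64) at E13.5, 3.55-fold (1.35 to 11.8) at E14.5 and 2.30-fold (1.80 to 2.96) at E15.5, and at P0 the ratio was 1.78 (1.02 to 3.19). The 4 epithelial classes were the 4 highest, though no class was apart from the next in that order.

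Nfkb1 (ENSMUSG00000028163, chromosome 3, 135584655 to 135691547), the precursor of the p50 subunit, was higher at P0 than at E13.5 in both tissues. From E13.5 to P0 epithelium had 74, 142, 1991 and 402 UMIs, which is 36.2 CPM (28.5 to 45.5), 112 (93.9 to 131), 139 (133 to 146) and 154 (139 to 169.6). Mesenchyme had 73, 31, 387 and 1261 UMIs, which is 30.3 CPM (23.8 to 38.1), 37.0 (25.1 to 52.5), 53.3 (48.1 to 58.9) and 503 (475 to 531). In epithelium the level was higher at E15.5 than at E13.5 by 3.84-fold (3.05 to 4.91), and the ratio of E14.5 over E13.5 was 3.08 (2.31 to 4.13). From E15.5 to P0 the epithelial ratio was 1.10 (0.989 to 1.23). In mesenchyme the ratio was 1.76 (1.37 to 2.29) from E13.5 to E15.5, and Nfkb1 was then higher at P0 by 9.43-fold (8.41 to 10.6). Across tissues, epithelium was higher by 3.01-fold (2.03 to 4.60) at E14.5 and 2.61-fold (2.34 to 2.92) at E15.5, and mesenchyme by 3.27-fold (2.92 to 3.67) at P0. At E13.5 the ratio was 1.20 (0.854 to 1.68). In the order of the classes, P0 mesenchyme was apart from P0 epithelium, the next, which was not apart from E15.5 epithelium, and the 4 lowest classes, from E15.5 mesenchyme down, were not apart from their neighbours among these.

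After thinning to 5000 UMIs, Nfkb1 had a UMI in 46.1% of epithelial cells at E15.5 and 48.7% at P0. In mesenchyme these shares were 26.5% (21.5 to 32.0) and 80.6% (75.4 to 85.1). In P0 mesenchyme no cell held more than 29 UMIs of it, and the 28 cells with the most held 30.3% of its UMIs. In epithelium, Nfkb1 was higher in the Tbx3 Pthlh than in the Krtdap Anxa1 range by 2.07-fold (1.35 to 3.28) at E14.5, at 134 and 64.8 CPM, and by 2.03-fold (1.82 to 2.27) at E15.5, at 167 and 82.3 CPM. At E13.5 the same ratio was 1.75 (1.02 to 3.13). In P0 mesenchyme it was at 474 CPM in the Pi16 Dpp4 range, 567 in the adipogenic and 498 in the matrix range. P0 epithelium was split into a basal range (Acta2, Myh11, Cnn1, Mylk, Oxtr, Tagln) of 37 cells, a luminal progenitor range (Aldh1a3, Kit, Elf5, Csn3, Lypd3, Trf) of 134 and a hormone-sensing range (Prlr, Esr1, Pgr, Cited1, Wnt4) of 58, with 11, 13 and 2 near the cut. Nfkb1 was at 205 CPM (163 to 254), 154 CPM (134 to 176) and 130.2 CPM (107 to 157) in these.

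Nfkbia (ENSMUSG00000021025, chromosome 12, 55489410 to 55492647) encodes the inhibitor IkB-alpha. From E13.5 to P0 epithelium had 716, 373, 4676 and 1235 UMIs and mesenchyme 278, 70, 934 and 1995. Its level in epithelium was 351 CPM (325 to 377), 293 (264 to 324), 327 (318 to 337) and 472 (446 to 499). In mesenchyme it was 115 CPM (102 to 129.8), 83.5 (65.1 to 106), 129 (121 to 137) and 796 (761 to 831). Epithelium was higher by 3.04-fold (2.64 to 3.502) at E13.5, 3.51-fold (2.71 to 4.59) at E14.5 and 2.54-fold (2.37 to 2.73) at E15.5. In the order of the classes, P0 mesenchyme and then P0 epithelium were apart from the next, and E13.5 and E15.5 epithelium were not apart from each other. At P0 mesenchyme was 1.68 times as high (1.57 to 1.81). From E15.5 to P0 mesenchyme was higher by 6.18-fold (5.72 to 6.69), and the epithelial ratio was 1.44 (1.36 to 1.54). The Tbx3 Pthlh range was above the Krtdap Anxa1 range by 2.94-fold (2.19 to 4.01) at E14.5, whereas at E13.5 the ratio was 1.01 (0.863 to 1.18) and at E15.5 1.12 (1.05 to 1.19). In P0 mesenchyme the adipogenic range was at 1016 CPM (941 to 1094), a ratio to the other ranges of 1.41 (1.28 to 1.54).

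Relb (ENSMUSG00000002983, chromosome 7, 19606217 to 19629438) had 57, 80, 485 and 161 UMIs in epithelium from E13.5 to P0 and 31, 18, 149 and 130 in mesenchyme. Its level in epithelium was 27.9 CPM (21.1 to 36.2), 62.8 (49.8 to 78.2), 33.9 (31.0 to 37.1) and 61.6 (52.4 to 71.9). In mesenchyme it was 12.9 CPM (8.75 to 18.3), 21.5 (12.7 to 33.9), 20.5 (17.4 to 24.1) and 51.8 (43.3 to 61.6). Epithelium was higher by 2.17-fold (1.38 to 3.48) at E13.5 and 2.93-fold (1.74 to 5.18) at E14.5, with ratios of 1.65 (1.37 to 2.00) at E15.5 and 1.19 (0.937 to 1.51) at P0. E14.5 epithelium and both P0 tissues were the 3 highest classes and were not apart from their neighbours among these. At P0 mesenchyme was higher than at E15.5 by 2.53-fold (1.98 to 3.22), and the epithelial ratio was 1.81 (1.51 to 2.17). In P0 epithelium Relb was at 88.0 CPM in the hormone-sensing range and 44.2 in the luminal progenitor range. The Tbx3 Pthlh range was above the Krtdap Anxa1 range by 2.29-fold (1.28 to 4.42) at E14.5, and the ratio at E15.5 was 1.88 (1.504 to 2.36).

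Nfkb1 and Nfkbia, each found in many cells, were often seen in the same cell. In E15.5 epithelium 433 of 532 cells held both. In P0 mesenchyme 228 of 273 did, with Nfkbia in 95% of the 240 cells with Nfkb1 and 72.7% of the others, before thinning. After thinning, 33.1% of E15.5 epithelial cells, 11.7% of E15.5 mesenchymal cells and 74.0% of P0 mesenchymal cells held both. The separate shares with Nfkb1 and with Nfkbia were then 46.1% and 69.0%, 26.5% and 44.2%, and 80.6% and 87.9%. Whether the genes share cells more often than these separate shares give was not tested.

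Because handling of tissue is known to raise genes such as Nfkbia, the members were set beside 12 genes of dissociation and acute stress (Fos, Fosb, Jun, Junb, Egr1, Atf3, Ier2, Ier3, Dusp1, Zfp36, Hspa1a, Hspa1b). Their summed level from E13.5 to P0 was 3391, 5305, 6002 and 3649 CPM in epithelium and 5295.5, 8192, 6677 and 7123 CPM in mesenchyme. At E15.5, 2 of the 12 were at least 2-fold higher in epithelium and 2 in mesenchyme, with a median log2 ratio of 0.02, where 17.4% and 23.8% of all genes were so called. At P0, 0 were higher in epithelium and 6 in mesenchyme, with a median of -1.14, led by Fosb at 10.9-fold (9.36 to 12.8), against 25.2% and 20.8% of all genes. In mesenchyme 6 were higher and 2 lower at P0 than at E15.5, with a median of 1.06, against 15.6% and 27.5% of all genes. In epithelium 1 was higher and 3 were lower, with a median of -0.19, against 16.3% and 18.2%. For E15.5 over E13.5, 6 were higher and 0 lower in epithelium, with a median of 1.02, against 14.1% and 16.3%. Mesenchyme had 3 higher and 0 lower there, with a median of 0.55, against 8.9% and 15.7%. For P0 over E13.5, epithelium had 3 higher and 2 lower, with a median of -0.03, against 18.6% and 22%. Mesenchyme had 8 higher and 3 lower, with a median of 1.74, against 15.2% and 36.5%.

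Each class was then divided at its median cell by the summed level of these genes, a division chosen after seeing the data. In P0 mesenchyme Nfkb1 was at 515 CPM (476 to 557) in the cells below the median and 491 CPM (454 to 531) in those above it. Nfkbia was at 665 CPM (620.4 to 713) and 918 CPM (867 to 972). Its intervals did not overlap in E13.5 (280 CPM below and 429 above), E15.5 (291 and 365) and P0 epithelium (427 and 525) either. The same held in E15.5 mesenchyme (112 and 147 CPM). They overlapped in E14.5 epithelium and in E13.5 and E14.5 mesenchyme. At E13.5 the ratio of epithelium over mesenchyme for Nfkbia was 2.54 (2.06 to 3.15) below and 3.55 (2.93 to 4.31) above. In mesenchyme from E13.5 to E15.5 Nfkb1 was at 30.2, 36.3 and 50.2 CPM below and 30.4, 37.7 and 56.6 CPM above. In epithelium from E13.5 to P0 it was at 36.5, 74.6, 118 and 136 CPM below and 36.0, 149, 161 and 175 CPM above. Its intervals did not overlap in E14.5 (55.0 to 98.9 and 121 to 183) and E15.5 epithelium (111 to 126 and 152 to 171). At E14.5 its ratio of epithelium over mesenchyme was 2.05 (1.13 to 3.95) below and 3.96 (2.32 to 7.22) above. Among cells below the median, P0 mesenchyme was above epithelium by 3.79-fold (3.22 to 4.48) for Nfkb1, and the ratio for Nfkbia was 1.56 (1.40 to 1.74). At E15.5, Nfkb1 was higher in epithelium by 2.36-fold (2.01 to 2.78) below the median and 2.85-fold (2.45 to 3.33) above it, and Nfkbia by 2.61-fold (2.35 to 2.90) and 2.49-fold (2.26 to 2.74). For Relb the E15.5 ratio of epithelium over mesenchyme was 1.28 (0.988 to 1.68) below and 2.09 (1.60 to 2.77) above the median, and at P0 it was 1.30 (0.955 to 1.78) and 0.976 (0.659 to 1.44). For Traf6, counted as higher in epithelium at E15.5 over all cells, the ratio was 1.85 (1.31 to 2.66) below the median, under 2-fold, and 2.80 (1.97 to 4.06) above it. The part of handling in the differences between tissues or stages was not tested.

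**Figure D4:**
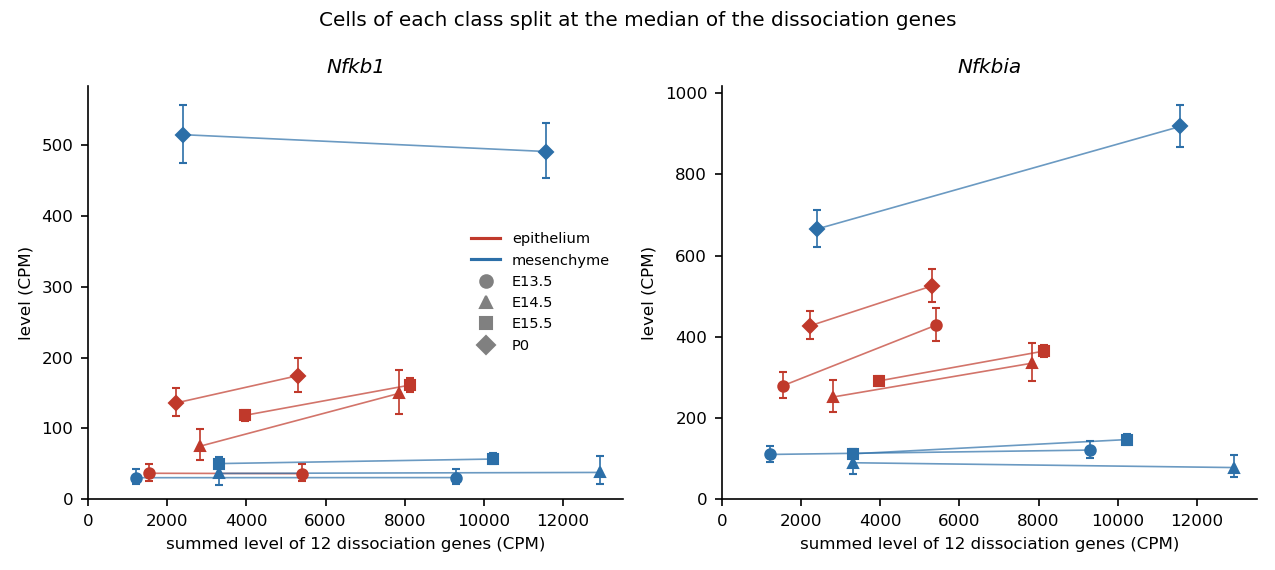
Level of Nfkb1 and Nfkbia (CPM) against the summed level of 12 dissociation genes (CPM) in the cells of each class below and above its median for these genes, joined by a line. Red is epithelium, blue mesenchyme, symbols are stages and bars exact 95% Poisson intervals. Nfkb1 in P0 mesenchyme is at 515 CPM below and 491 CPM above the median, higher than any other class.

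P0 mesenchyme also held markers of other lineages. All 4 immune genes listed (Ptprc, Tyrobp, Cd52, Fcer1g) were detected and summed to 34.7 CPM, against at most 3.06 CPM in any other class, with Ptprc at 10 UMIs. They were seen in few cells, namely 2, 4, 2 and 4 of 273. The endothelial genes Pecam1, Cdh5 and Kdr summed to 35.1 CPM, against 12.04 to 22.7 CPM in embryonic mesenchyme. Most of the P0 sum came from Pecam1, at 33.9 CPM, while Cdh5 had 0 UMIs and Kdr 3, at 1.20 CPM. Kdr was at 5.40, 9.55 and 10.2 CPM in mesenchyme from E13.5 to E15.5. Muscle markers (Myod1, Myog, Acta1, Actc1) summed to 94.7 CPM in E13.5 and 29.5 CPM in P0 mesenchyme and to at most 3.92 CPM elsewhere, and melanocyte markers (Pmel, Dct, Mlana) to at most 2.94 CPM in any class. With all cells left out that held 2 or more UMIs of immune, endothelial, red blood, melanocyte, glial or muscle markers, 236 mesenchymal cells remained at P0. The log2 ratios of P0 over E15.5 were then 3.28 for Nfkb1, 2.67 for Nfkbia, 1.49 for Relb and 2.16 for Eda, beside 3.24, 2.63, 1.34 and 1.91 with all cells.

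Between E13.5 and E15.5, 1 of 8 members in epithelium was higher at E15.5 (Nfkb1) and 1 lower (Tnfrsf19), where 14.1% and 16.3% of all genes were. By the paper's counts, the epithelial classes of these stages differ in their mix of mammary and other cells. In mesenchyme 0 of 7 were higher and 0 lower, against 8.9% and 15.7% of all genes. Between E15.5 and P0, 0 of 8 were higher at P0 in epithelium and 4 were lower (Eda, Edar, Edaradd and Tnfrsf19), against 16.3% and 18.2% of all genes. In mesenchyme 4 of 7 were higher (Eda, Nfkb1, Nfkbia and Relb) and 2 lower (Edaradd and Tnfrsf19), against 15.6% and 27.5% of all genes. The E15.5 table names another Cell Ranger version than the others, so P0 was also set against E13.5, which shares its version. In epithelium 2 of 7 were then higher at P0 (Nfkb1 and Relb) and 3 lower (Eda, Edaradd and Tnfrsf19), against 18.6% and 22% of all genes. In mesenchyme 4 of 7 were higher and 2 lower, the members named for E15.5, against 15.2% and 36.5% of all genes. Within a tissue, any pair of these comparisons shares a library (E13.5, E15.5 or P0).

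The median log2 ratio of the members tested was 0.21 in epithelium and 0.16 in mesenchyme for E15.5 over E13.5, beside -0.09 and -0.19 over all genes. For P0 over E15.5 it was -1.43 and 1.34, beside -0.07 and -0.39, and for P0 over E13.5 -0.50 and 1.61, beside -0.17 and -0.59. Under median of ratios scaling the genes of mesenchyme centre on a log2 ratio of -0.20 for P0 over E15.5 and -0.39 for P0 over E13.5, so that every log2 ratio is higher by that amount, and no count of members between stages changed. The same centre was -0.10 and -0.17 in epithelium and mesenchyme for E15.5 over E13.5 and -0.18 in epithelium for P0 over E13.5. After thinning, when fewer members reach 10 UMIs, 3 were lower in epithelium and 1 in mesenchyme at P0 than at E15.5. The shares of all genes under this scaling or after thinning are not given here.

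Other genes of the pathway were taken from lists and named where they had at least 50 UMIs at E15.5 and the largest ratios. Among 9 further receptors and adaptors (Eda2r, Traf1, Traf2, Traf3, Traf5, Tab1, Tab2, Tab3, Map3k7), 8 were tested between tissues at E15.5, of which 3 were higher in epithelium and 1 in mesenchyme, with a median log2 ratio of 0.39, beside 17.4% and 23.8% and -0.12 over all genes. Traf3, a brake on the non-canonical pathway, was higher in epithelium by 3.11-fold (2.57 to 3.78), and Tab1 in mesenchyme by 2.32-fold (1.48 to 3.65). At P0, 3 of 9 were higher in epithelium and 1 in mesenchyme, with a median of 0.45, beside 25.2% and 20.8% and 0.26 over all genes. Traf2 was then higher in epithelium by 10.4-fold (4.18 to 33.2) and Traf5 in mesenchyme by 8.34-fold (3.29 to 27.1). Between E15.5 and P0, 2 were higher at P0 and 3 lower of 9 in epithelium, and 1 and 2 of 8 in mesenchyme, with medians of -0.36 and -0.63, where 16.3% and 18.2% of all genes in epithelium and 15.6% and 27.5% in mesenchyme were higher and lower.

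Of 16 IkB kinases, NF-kB subunits and inhibitors, 6 were higher in epithelium and 4 in mesenchyme at E15.5, with a median of 0.39, against 17.4% and 23.8% of all genes. Tnfaip3, the inhibitor A20, was higher in epithelium by 3.76-fold (2.69 to 5.40), and Map3k14, the kinase NIK, in mesenchyme by 5.24-fold (3.72 to 7.49). The subunit gene Rela was at 205 CPM in epithelium and 58.1 in mesenchyme, and Nfkb2 at 35.5 and 10.9. At P0, 2 were higher in epithelium and 1, Rel, in mesenchyme, with a median of 0.02, against 25.2% and 20.8%. Mesenchyme had 8 higher and 1 lower at P0 than at E15.5, with a median of 1.11 where all genes had -0.39 and 15.6% and 27.5% of them were higher and lower, and Tnfaip3 was higher there by 8.69-fold (5.998 to 12.8). Epithelium had 6 higher and 0 lower, with a median of 0.25, against 16.3% and 18.2% of all genes, and Bcl3, an atypical IkB protein, was higher by 17.0-fold (12.1 to 24.2).

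Of 16 genes known as targets of ectodysplasin or NF-kB, 11 were tested between tissues at E15.5, where 10 were higher in epithelium and 1, Ccn2, in mesenchyme, with a median of 3.33, against 17.4% and 23.8% of all genes. The list was Dkk4, Fgf20, Shh, Wnt10a, Wnt10b, Pthlh, Fst, Foxi3, Foxi2, Ltb, Lrp4, Cxcl10, Areg, Epgn, Icam1 and Ccn2. The paper places Wnt10b and Pthlh in epithelium, so a count higher there could be foreseen and is a description only. Epgn, an EGF family ligand, was higher in epithelium by 63.4-fold (32.1 to 147). Wnt10b, a Wnt ligand, was at 36.1 CPM in E15.5 epithelium and had 0 UMIs at P0, 31.5-fold lower when set to 3 counts (exact lower limit 25.5). Cxcl10, a chemokine, was at 546 CPM in epithelium and 54.1 in mesenchyme at E15.5, and at 41.3 and 664 CPM at P0, when it was higher in mesenchyme by 16.1-fold (13.2 to 19.7). At P0, 4 of 9 were higher in epithelium and 3 in mesenchyme, with a median of 0.76, against 25.2% and 20.8% of all genes. At P0 against E15.5, 2 of 11 were higher and 8 lower in epithelium, with a median of -1.38, and 5 of 9 higher and 3 lower in mesenchyme, with a median of 1.19, against 16.3% and 18.2% of all genes in epithelium and 15.6% and 27.5% in mesenchyme.

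Among 11 related TNF ligands and receptors, 9 were tested between tissues at E15.5, 3 higher in epithelium and 4 in mesenchyme, with a median of -0.92, against 17.4% and 23.8% of all genes. Tnf was higher in epithelium by 45.2-fold (7.91 to 1805), and Ltbr, the lymphotoxin receptor, in mesenchyme by 5.35-fold (3.67 to 7.94). At P0 the numbers were 3 and 4 of 10, with a median of -0.44, against 25.2% and 20.8%. At P0 against E15.5, 6 of 8 were higher in epithelium and 4 of 8 in mesenchyme, with 0 lower in either and medians of 1.31 and 1.04. Of all genes, 16.3% were higher and 18.2% lower in epithelium, and 15.6% higher and 27.5% lower in mesenchyme.

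The genes whose levels were most like those of a member over the 8 classes were found by Pearson's r of log2(CPM + 5) among 11234 genes with at least 100 UMIs. For Eda they were Lrrk2 (r = 0.919), Pcdh7 (0.914) and Cyb5a (0.894). For Edaradd they were Sin3a (r = 0.987), Ttc23 (0.986) and Tnpo1 (0.983), and for Tnfrsf19 Bcl7a (r = 0.996), Tceanc2 (0.987) and Mrpl50 (0.986). For Edar, which had few UMIs, they were Gm4673 (r = 0.955), Safb2 (0.953) and Slc16a13 (0.952). The 8 points come from 4 libraries, so that tissues of a stage share a library, and these values are a description with no test.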

How the data were processed

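For each stage the authors deposited a table of UMI counts, genes by cell barcodes, without normalization, made with 10x Cell Ranger on mm10. Per the file headers the E15.5 table was made with version 3.1.0 and the other tables with 6.0.0, which the submitters' processing notes give for all. Every barcode held at least 500 UMIs. Samples were grouped by the stage in their labels, genes were matched by Ensembl identifier, and tissues were set per cell by marker sums. Doublets had been gated out in the sort, and no doublet caller was run. Analyses used Python 3.11.15 with numpy 2.4.6, scipy 1.17.1, pandas 2.3.3 and matplotlib 3.10.9. Calls of 2-fold were made for every gene, which gives the share of all genes, and a class at 0 UMIs was set to 3 counts. Thinning drew 5000 UMIs from each cell. Ranges compare marker sums divided by their mean over the cells of that tissue and stage. Genes of the lists were named if they had at least 50 UMIs at E15.5 and the largest ratio in a direction, and some further ones of that depth are given as values. The members and lists were chosen with earlier results of these data known. The level of 1 marker list used to leave out cells is not reported here. Alternatives changed the mitochondrial maximum (10%), the UMI minimum (3000), the tissue rule, the scaling, the fold and the cells kept, and the division by dissociation genes was added after seeing the data. The code for levels, ratios and calls was tested on simulated counts with known changes. The promoter windows come from RefSeq and the gene coordinates from GENCODE M21, both on GRCm38.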

Additional observations from a re-analysis of the deposited data

Results flagged for a closer look

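The log2 ratio of epithelium over mesenchyme changed sign between stages for Eda, Nfkb1 and Nfkbia, with intervals on opposite sides of 0, and the difference itself was not tested because each stage has 1 library. For Eda it was 1.27 at E15.5 and -3.60 at P0. For Nfkb1 it was 1.59 and 1.39 at the last embryonic stages and -1.71 at P0. For Nfkbia it was 1.60, 1.81 and 1.35 before birth and -0.75 at P0.

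The barcodes that the depth and mitochondrial limits removed belong to no comparison above. At E15.5, 663 of them had more mesenchymal than epithelial marker UMIs, with a median of 704 UMIs. Nfkb1 was at 119.5 CPM in these and 53.3 CPM in the kept cells, a ratio of 2.24 (1.81 to 2.76). Nfkbia was at 684 CPM against 129 CPM, a ratio of 5.32 (4.81 to 5.87). Relb was at 42.1 CPM against 20.5 CPM, a ratio of 2.05 (1.43 to 2.90). Tnfrsf19 was lower in these, at 13.7 CPM against 29.8 CPM, a ratio of 0.461 (0.248 to 0.791). At P0, 331 removed barcodes were mesenchymal by the same markers, with 1 UMI of Eda. Eda was at 1.73 CPM in these and 13.96 CPM in the kept cells, a ratio of 0.124 (0.00305 to 0.737). The same ratio at P0 was 0.746 (0.663 to 0.837) for Nfkbia and 1.37 (1.22 to 1.54) for Nfkb1.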

How the results depend on the processing

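No paired analysis was possible because each stage has 1 library. Of the counts of members under the alternatives, 186 stayed within 1.5 times of the reported count and 14 did not. Shares of all genes are given for the main setting only, so the counts that follow have no background beside them. At E15.5, 1 member in place of 0 was counted as higher in mesenchyme with a margin of 5 times between the marker sums, with other tissue markers and with a fold of 1.5. Averaging the CPM of single cells left 1 in place of 2 members higher at P0 than at E13.5 in epithelium. After thinning to 5000 UMIs, that count was 1 as well, 1 in place of 3 was lower there, 1 in place of 2 was lower in mesenchyme at P0 than at E15.5 or E13.5, and 2 in place of 0 were higher at E15.5 than at E13.5 in mesenchyme. A fold of 1.5 gave 1 in place of 0 higher in epithelium at P0, 2 in place of 1 higher at E15.5 than at E13.5 in epithelium, 2 in place of 0 in mesenchyme, and 1 in place of 0 higher at P0 than at E15.5 in epithelium. With no minimum of UMIs, 1 in place of 0 was lower at E15.5 than at E13.5 in mesenchyme. Of the single log2 ratios, 708 moved within their counting interval, where a ratio near 0 can still change sign, as that of Relb at P0 did. A further 51 moved beyond the interval, 34 of these after thinning, where few UMIs are left. Besides these, 1 ratio moved beyond its interval and changed sign. This was the ratio of Nfkbia in the sub-epithelial over the dermal range at E15.5, which went from -0.44 to 0.032 after thinning, and the cause was not tested. The few cells of E14.5 and the shallow cells of P0 limit what can be said of Edar, Edaradd and Eda.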
